A study of Mus musculus with 6 samples.

Results

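The genes examined were 10 mitotic kinases and cyclins, namely Plk1, Plk2, Plk3, Plk4, Aurka, Aurkb, Nek2, Ccna2, Ccnb1 and Ccnb2. They were taken by gene symbol, and all 10 were found among the 29955 genes of the deposited RNA-seq table. RNA had been sequenced from mouse embryonic fibroblasts (MEFs, primary fibroblasts grown from mid-gestation embryos) at passage 3, with 3 Rnf40+/+ and 3 Rnf40-/- libraries. Rnf40 encodes a RING finger ubiquitin ligase that acts with RNF20 to attach a single ubiquitin to histone H2B. In the conditional allele loxP sites flank exons 3 and 4, and a tamoxifen-inducible Cre (CreERT2) is expressed from the ubiquitous Rosa26 locus. The Rnf40-/- cells had received 250 nM 4-hydroxytamoxifen (4-OHT) for 5 days, followed by 3 days without it. The study describes its inducible MEFs as coming from homozygous floxed embryos with CreERT2. It does not state whether the sequenced Rnf40+/+ cells were such cells left undeleted or cells with the wild-type allele, nor whether they had received 4-OHT, so deletion and treatment cannot be told apart. They also do not state whether the replicates came from separate embryos, and the p values measure the spread between these libraries only.

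Entry into mitosis is driven by CDK1 bound to a B-type cyclin, after cyclin A has acted in S phase and G2. Aurora A and its substrate PLK1 help to switch on CDK1 and to build the spindle poles, Aurora B corrects the attachment of chromosomes, NEK2 separates the centrosomes, and PLK4 starts the duplication of centrioles. The mRNAs of most of these genes rise toward G2 and M in dividing cells and are low in resting cells. PLK2 and PLK3 belong to the same Polo-like family by sequence, but they are known as kinases induced by serum and stress rather than as mitotic enzymes.

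Each deposited value is a read number scaled by the size factor of its library, called a normalized count here. Libraries held between 17053436 and 26344170 reads on genes, and 3 reads, taken as the limit of detection, corresponded to 2.4 to 3.58 normalized counts. Rnf40 itself had 1278, 1195 and 1096 normalized counts in Rnf40+/+ and 439, 519 and 487 in Rnf40-/- MEFs, so that 40.5% of its level was left over the whole gene. Among markers of fibroblasts, 8 of 10 were lower in Rnf40-/- MEFs by the test described next, and their summed normalized count was 669500 to 741500 in Rnf40+/+ and 400500 to 403400 in Rnf40-/- libraries. All of these fibroblast markers were detected in every library. The summed macrophage markers ran from 5558 to 9389 and from 3693 to 4043, most of it Lyz2, the single one of 8 macrophage markers that was lower. Ptprc and Cd14 were higher, with log2 fold changes of 1.37 and 0.66, and the other 5 macrophage markers did not pass. Endothelial markers summed to 146.1 to 281.8 against 233.5 to 332.9, and epithelial markers to 33.65 to 107.5 against 39.7 to 64.2. Neural markers summed to 1282 to 2685 against 1287 to 1481, nearly all of it Tubb3. Sox2, Gfap and Neurod1 stayed under 15 normalized counts. Skeletal muscle markers summed to 1596 to 4456 against 409 to 462, nearly all of it Acta1. Of 5 endothelial markers tested 3 were higher in Rnf40-/- MEFs, namely Pecam1, Cdh5 and Kdr, with log2 fold changes of 2.58, 3.26 and 1.56. Emcn was the 1 that was lower (-1.15). Pecam1 and Cdh5 reached at most 39.7 normalized counts in any library, and Kdr at most 117. The defining muscle marker Myod1 was at 0 in every library, while Myog, Myh3 and Ckm stayed under 15 normalized counts. The part of these other cell types in the results was not tested.

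In Rnf40-/- MEFs 8 of the 10 genes were lower, in the order Ccnb2, Ccnb1, Plk1, Aurka, Nek2, Aurkb, Ccna2 and Plk4 from the deepest fall to the shallowest. Plk2 and Plk3 did not pass the test in either direction. The test was limma on log2(normalized count + 1) over 16378 genes with Benjamini-Hochberg adjustment, and a gene was called at an adjusted p under 0.05. By this rule 24.1% of all genes tested were lower and 23.3% higher, 47.4% in either direction. The criteria of the study (mean above 15, unadjusted p under 0.05 and a log2 fold change below -1) were applied here to the limma values, whereas the study used DESeq. They were met by the same 8 genes, against 5.7% of genes tested, while 4.25% met the mirrored criteria for a rise. For these 8 genes the highest Rnf40-/- library lay below the lowest Rnf40+/+ library, as it did for 28.7% of genes tested, and for 27.8% the libraries were separate in the other direction. The 10 genes had a median log2 fold change of -2.16, against -0.0035 for all genes tested. In bulk RNA fewer cells in G2 or M and less mRNA per such cell cannot be told apart.

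**Figure D1:**
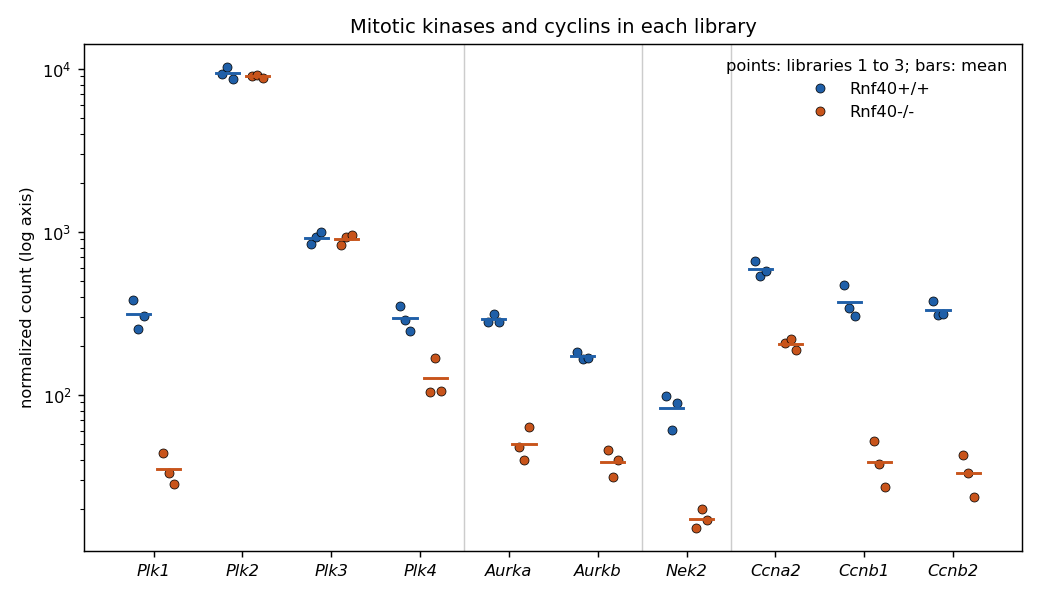
Normalized counts (log axis) of the 10 genes in each Rnf40+/+ and Rnf40-/- library, with points for single libraries and bars for the means of 3. The points of the genotypes overlap for Plk2 and Plk3 and are separate for the other 8 genes.

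The Polo-like kinases divided into a pair that fell and a pair that held close to the Rnf40+/+ level. Plk1 (ENSMUSG00000030867, chromosome 7 of mm9, 129302951 to 129313389, plus strand, 10 exons) encodes the kinase of centrosome maturation, mitotic entry and cytokinesis. Plk1 had 381, 255 and 304 normalized counts across the Rnf40+/+ replicates, against 43.8, 33.4 and 28.3 across the Rnf40-/- replicates. Each Rnf40-/- library was thus far under the lowest Rnf40+/+ library, and 11.2% of the mean was left. The log2 fold change was -3.12 (SE 0.20, adjusted p = 2.93e-07, limma).

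Plk4 (ENSMUSG00000025758, chromosome 3, 40603941 to 40620805, plus strand, 16 exons), the kinase that starts centriole duplication, had 350, 289 and 246 normalized counts in Rnf40+/+ and 104, 169 and 106 in Rnf40-/- MEFs. The second Rnf40-/- library stood above the other two but below every Rnf40+/+ library. Its log2 fold change was -1.24 (SE 0.19, adjusted p = 0.000265, limma), the shallowest among the 8 genes that fell, and 42.8% of the mean was left.

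Plk2 (ENSMUSG00000021701, chromosome 13, 111185252 to 111191052, plus strand, 14 exons) had 9328, 10275 and 8704 normalized counts in Rnf40+/+ and 9041, 9147 and 8791 in Rnf40-/- MEFs. All 3 Rnf40-/- libraries lay within the range of the Rnf40+/+ libraries. The log2 fold change of Plk2 was -0.07 with a 95% interval from -0.22 to 0.09 (adjusted p = 0.473, limma), which corresponds to 0.857 to 1.06 times the Rnf40+/+ level. Plk3 (ENSMUSG00000028680, chromosome 4, 116801260 to 116806568, minus strand, 15 exons) had 842, 933 and 996 normalized counts in Rnf40+/+ and 836, 936 and 953 in Rnf40-/- MEFs, again with overlapping ranges. Its log2 fold change was -0.02 with an interval from -0.21 to 0.16 (adjusted p = 0.846, limma), or 0.864 to 1.12 times the Rnf40+/+ level. Depth was not a limit for Plk2, which had 8764 to 9311 reads in the Rnf40-/- libraries. Plk5, the remaining family member, had at most 5.59 normalized counts in any library and was not tested.

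Within each library, the ratio of one member to another does not depend on the size factor. The ratio of Plk2 to Plk1 was 24.5, 40.3 and 28.6 in Rnf40+/+ MEFs, against 206, 274 and 310.4 in Rnf40-/- MEFs. The ratio of Plk3 to Plk1 went from 2.21, 3.66 and 3.27 to 19.1, 28.0 and 33.6, and that of Plk4 to Plk1 from 0.918, 1.13 and 0.808 to 2.37, 5.06 and 3.73. All 3 ratios were higher in each Rnf40-/- library than in any Rnf40+/+ library. The difference between the log2 fold changes was 3.06 for Plk2 against Plk1 (95% interval 2.44 to 3.67, adjusted p = 2.96e-22), 3.10 for Plk3 against Plk1 (2.50 to 3.70, adjusted p = 8.44e-24) and 1.88 for Plk4 against Plk1 (1.28 to 2.49, adjusted p = 1.09e-09). These values came from limma on every gene's log2 ratio to the reference gene, where the scatter of that reference is shared by all genes. For these 3 pairs the p values are therefore far too small. With the 7 ratios placed as single rows beside all genes, the same 3 adjusted p values from limma were 0.000558, 0.000852 and 0.0046. Plk3 against Plk2 gave a difference of 0.04 (-0.20 to 0.29, adjusted p = 0.78, limma), with ratios of 0.0903, 0.0908 and 0.114 in Rnf40+/+ and 0.0925, 0.102 and 0.108 in Rnf40-/- MEFs.

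**Figure D2:**
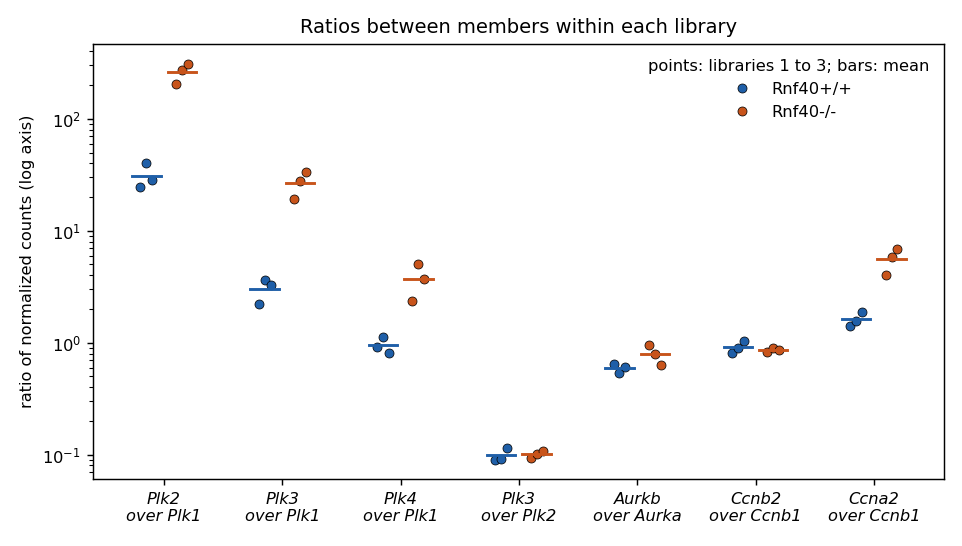
Ratios of normalized counts between pairs of members within each library (log axis), with points for single libraries and bars for the means of 3. The ratios of Plk2, Plk3 and Plk4 to Plk1 and of Ccna2 to Ccnb1 are higher in all 3 Rnf40-/- libraries, whereas the points of the other 3 pairs overlap.

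The promoters of the Polo-like genes are shown because members of one family moved differently. The sequences are from the RefSeq table of GRCm38.p6, which holds 8 of the 10 genes and lists 250 bases before and 50 bases after each annotated start. Aurkb and Ccna2 were not matched. Each window was searched on both strands for CCAAT, the box bound by NF-Y, for TTTGAA, the cell cycle homology region (CHR) bound by the MuvB complexes, for its variants TTCGAA and TTTAAA, and for the E2F sites TTTCCCGC, TTTCGCGC, TTTGCCGC and TTTGGCGC. Capitals mark CCAAT and TTTGAA, and each sequence is the 120 bases before the start, read 5′ to 3′ on the gene's strand.
Plk1 (chr7:122159315-122159434, plus strand): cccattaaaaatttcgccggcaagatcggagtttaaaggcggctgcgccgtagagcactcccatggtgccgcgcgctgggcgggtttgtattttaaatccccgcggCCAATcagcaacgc
Plk4 (chr3:40799831-40799950, plus strand): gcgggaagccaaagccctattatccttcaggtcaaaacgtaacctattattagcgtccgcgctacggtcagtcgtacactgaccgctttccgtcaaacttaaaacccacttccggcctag
Plk2 (chr13:110394924-110395043, plus strand): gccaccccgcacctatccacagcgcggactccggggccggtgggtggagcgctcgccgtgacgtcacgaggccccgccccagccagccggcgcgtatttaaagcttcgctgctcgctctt
Plk3 (chr4:117133964-117134083, minus strand): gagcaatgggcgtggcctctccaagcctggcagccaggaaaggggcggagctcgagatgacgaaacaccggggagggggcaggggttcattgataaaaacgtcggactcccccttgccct

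In the whole window of 300 bases, Plk1 held 1 CCAAT from base -14 to -10 and 1 TTTGAA from base 31 to 36 after the start, where base 1 is the first transcribed base. The windows of Plk2, Plk3 and Plk4 held neither. The variant TTTAAA was present at 2 places in Plk1 and at 1 place each in Plk2 (base -24) and Plk4 (base -135). Of 32851 promoters in the table, 37.4% held CCAAT, 17.9% held TTTGAA, 13.2% held TTTAAA and 6.95% held both CCAAT and TTTGAA. Plk4, which fell, thus shared the lack of both motifs in this window with Plk2 and Plk3.

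Both Aurora kinases fell. Aurka (ENSMUSG00000027496, chromosome 2 of mm9, 172181690 to 172196035, minus strand, 9 exons), which encodes the kinase of the spindle poles, had 282, 313 and 281 normalized counts in Rnf40+/+ and 47.9, 39.7 and 63.3 in Rnf40-/- MEFs. The Rnf40+/+ libraries were close to each other (292 ± 18.2, SD, n = 3), and the highest Rnf40-/- library reached 22.5% of the lowest of them. The log2 fold change of Aurka was -2.54 (SE 0.18, adjusted p = 5.53e-07, limma). Aurkb (ENSMUSG00000020897, chromosome 11, 68859149 to 68865166, plus strand, 8 exons) encodes the enzyme of the chromosomal passenger complex. It had 183, 167 and 169 normalized counts in Rnf40+/+ and 45.9, 31.3 and 39.7 in Rnf40-/- MEFs, a log2 fold change of -2.14 (SE 0.19, adjusted p = 2.96e-06, limma).

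The ratio of Aurkb to Aurka was 0.648, 0.534 and 0.602 in Rnf40+/+ and 0.957, 0.789 and 0.627 in Rnf40-/- libraries, so the ranges overlapped. The difference between their log2 fold changes was 0.40 (95% interval -0.21 to 1.01, adjusted p = 0.204, limma) and was not past the threshold. The ratio as a single row beside all genes gave an adjusted p of 0.108 (limma). Without the third Rnf40-/- library the difference was 0.55, with an adjusted p of 0.0396 from limma on ratios to Aurka. In that fit the scatter of Aurka is shared by all genes, and the single-row fit was not run without that library. With all libraries the fit on ratios gave a larger adjusted p for this pair than the single-row fit. Aurkc, the germ cell member of the family, had between 0 and 10.7 normalized counts and was not tested.

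The window of Aurka held 2 CCAAT boxes, 32 bases apart, 1 TTTGAA and the variant TTTAAA at base 18. It is shown, with the stretch around TTTGAA after the start, because it carries the same motifs as Plk1.
Aurka, 120 bases before the start (chr2:172370571-172370690, minus strand): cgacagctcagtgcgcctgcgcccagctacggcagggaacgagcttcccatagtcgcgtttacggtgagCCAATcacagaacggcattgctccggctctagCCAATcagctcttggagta
Aurka, bases 21 to 50 (chr2:172370521-172370550, minus strand): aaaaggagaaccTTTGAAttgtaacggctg
Plk1, bases 19 to 48 (chr7:122159453-122159482, plus strand): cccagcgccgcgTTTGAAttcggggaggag

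Nek2 (ENSMUSG00000026622, chromosome 1 of mm9, 193645323 to 193656929, plus strand, 8 exons), whose product dissolves the linker between centrosomes, had the lowest level per kilobase of the 10 genes. It had 99.1, 61.2 and 88.6 normalized counts in Rnf40+/+ and 15.3, 19.8 and 17 in Rnf40-/- MEFs. The Rnf40-/- libraries were alike and all under the lowest Rnf40+/+ library. The values in Rnf40-/- rested on 15, 19 and 18 reads, with exact Poisson 95% intervals of 8.4 to 24.7, 11.4 to 29.7 and 10.7 to 28.4 reads, which cover counting error only. The log2 fold change was -2.17 (SE 0.26, adjusted p = 3.8e-05, limma). With 10 added to each value in place of 1 it was -1.74. The Nek2 window held CCAAT at bases -26 and 8 but no TTTGAA.

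All 3 cyclins fell, and the B-type cyclins fell further than cyclin A2. Ccnb1 (ENSMUSG00000041431, chromosome 13 of mm9, 101548605 to 101556525, minus strand, 9 exons) encodes the main mitotic partner of CDK1. It had 469, 343 and 304 normalized counts in Rnf40+/+ and 52.0, 37.6 and 27.4 in Rnf40-/- MEFs, so 10.5% of the mean was left. The first library was the highest in each genotype. Its log2 fold change was -3.24 (SE 0.23, adjusted p = 5.9e-07, limma).

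Ccnb2 (ENSMUSG00000032218, chromosome 9, 70255496 to 70269361, minus strand, 9 exons), the second B-type partner of CDK1, had 379, 310.0 and 312 normalized counts in Rnf40+/+ and 42.8, 33.4 and 23.6 in Rnf40-/- MEFs. The highest Rnf40-/- library reached 13.8% of the lowest Rnf40+/+ library, and 9.97% of the mean was left. The log2 fold change was -3.32 (SE 0.21, adjusted p = 2.28e-07, limma). Ccna2 (ENSMUSG00000027715, chromosome 3, 36463788 to 36471072, minus strand, 8 exons), which partners CDK2 and CDK1 from S phase onward, had 659, 534 and 576 normalized counts in Rnf40+/+ and 208, 220.2 and 190 in Rnf40-/- MEFs. Ccna2 fell by 1.51 on the log2 scale (SE 0.11, adjusted p = 6.64e-07, limma), and 34.9% of the mean was left.

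The ratio of Ccna2 to Ccnb1 was 1.40, 1.56 and 1.89 in Rnf40+/+ and 4.00, 5.86 and 6.93 in Rnf40-/- libraries, without overlap. The difference between their log2 fold changes was 1.73 (95% interval 0.99 to 2.48, adjusted p = 5.62e-06, limma on ratios to Ccnb1). That p value is too small, since the scatter of Ccnb1 is shared by all genes in that fit. As a single row beside all genes, the ratio gave an adjusted p of 0.00259 (limma). The ratio of Ccnb2 to Ccnb1 was 0.807, 0.905 and 1.03 in Rnf40+/+ and 0.824, 0.889 and 0.862 in Rnf40-/- libraries, all within a narrow span. The difference between the log2 fold changes of the B-type cyclins was -0.08, with an interval from -0.86 to 0.71 that leaves room for a moderate difference in either direction (adjusted p = 0.849, limma). In the single-row fit this interval ran from -0.34 to 0.18.

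The B-type cyclin promoters are shown beside each other since these genes had the deepest falls and nearly the same ratio in every library. Ccnb2 held 3 CCAAT boxes at bases -87, -54 and -21 and TTTGAA at bases -167 and 5, whereas Ccnb1 held 2 CCAAT boxes at bases -99 and -67 and, in place of TTTGAA, the variant TTTAAA at base -42.
Ccnb2, 120 bases before the start (chr9:70421555-70421674, minus strand): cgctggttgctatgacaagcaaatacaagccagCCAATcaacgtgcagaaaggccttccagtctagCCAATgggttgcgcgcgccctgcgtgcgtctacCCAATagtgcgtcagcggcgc
Ccnb2, bases 1 to 30 (chr9:70421525-70421554, minus strand): ggtaTTTGAAtcgcggaccgggcggtggac
Ccnb1, 120 bases before the start (chr13:100786487-100786606, minus strand): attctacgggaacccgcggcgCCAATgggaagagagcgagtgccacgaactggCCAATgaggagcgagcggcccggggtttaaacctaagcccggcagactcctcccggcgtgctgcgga

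Across the 8 promoters matched, 5 held CCAAT (Plk1, Aurka, Nek2, Ccnb1 and Ccnb2), and 3 of these also held TTTGAA. Of all promoters 37.4% held CCAAT and 6.95% held both. These 5 genes had log2 fold changes from -3.32 to -2.17, and the 3 genes without CCAAT in the window were Plk4, Plk2 and Plk3. None of the 8 windows held TTCGAA or the E2F letters searched, which occur in 1.56% and 2.26% of all promoters. No match of one motif overlapped a match of another. A match is a run of letters only, and neither binding nor a role of these motifs was measured here.

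**Figure D3:**
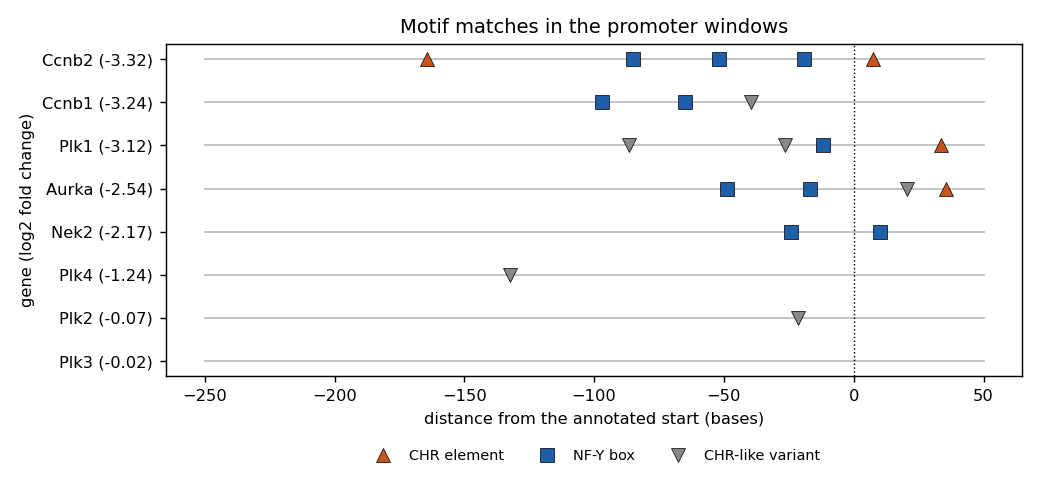
Position of motif matches from 250 bases before to 50 bases after the annotated start in 8 genes, ordered by log2 fold change (in brackets). NF-Y box is CCAAT, CHR element is TTTGAA and CHR-like variant is TTTAAA. Among these 8 genes the NF-Y box is present in the 5 with the deepest falls and absent from the windows of Plk4, Plk2 and Plk3. Of all promoters 37.4% hold it. Aurkb and Ccna2 fell but were not matched, and a role of the motif was not tested.

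Levels were compared between genes as normalized counts per kilobase of the longest coding transcript. In Rnf40+/+ MEFs Plk2 led with 3368 ± 282 and Plk3 followed with 388 ± 32.5 (SD, n = 3 each). Next came Ccnb2 (216 ± 25.3), Ccna2 (199 ± 21.5), Aurka (153 ± 9.58), Ccnb1 (149 ± 34.7), Plk1 (142 ± 28.8), Aurkb (88.8 ± 4.31), Plk4 (84.7 ± 15.02) and Nek2 (25.7 ± 6.07). The libraries of Ccnb2 and Ccna2 overlapped, as did those of Aurka, Ccnb1 and Plk1 and those of Aurkb and Plk4, so the order within these sets was not resolved. Ccna2 and Ccnb1 overlapped as well.

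In Rnf40-/- MEFs Plk2 (3210 ± 65.1 per kilobase) and Plk3 (382 ± 26.5) kept the first places. Ccna2 (69.5 ± 5.17) and Plk4 (36.3 ± 10.7) came next, ahead of Aurka (26.4 ± 6.29), Ccnb2 (21.6 ± 6.24), Aurkb (20.0 ± 3.75), Plk1 (16.0 ± 3.59), Ccnb1 (15.7 ± 4.97) and Nek2 (5.38 ± 0.710). Plk4 thus moved from place 9 to place 4 by level per length, and Ccnb1 from place 6 to place 9. Plk4 and Aurka overlapped between libraries, and so did neighbours from Aurka down to Ccnb1.

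**Figure D4:**
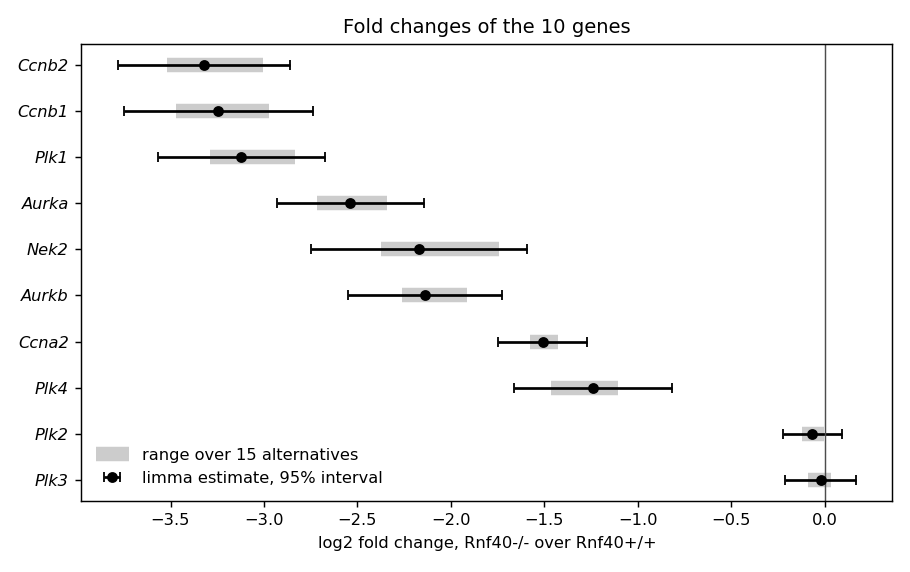
Log2 fold change of each gene in Rnf40-/- over Rnf40+/+ MEFs, with points for the limma estimate, lines for its 95% interval and grey bars for the range over 15 other settings. The intervals of Plk2 and Plk3 span 0, and those of the other 8 genes stay below -0.81.

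Ccna2 and Plk3 each shared sequence with a neighbour on the opposite strand. The transcript of Ccna2 overlaps that of Exosc9 by 431 nucleotides and that of Plk3 overlaps Tctex1d4 by 84 nucleotides. The kit was strand-specific, but the strand setting of the counting is not given in the sources used here. Exosc9 rose from 904, 995 and 924 to 1169, 1090 and 1112 normalized counts (log2 fold change 0.26, adjusted p = 0.0117, limma), and Tctex1d4 had at most 13.2. No other coding transcript matched a member over 50 or more nucleotides at 90% identity.

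The libraries differed among themselves in how high these genes stood. The first Rnf40+/+ library had the highest value of its genotype for 7 of the 10 genes, and it was also the shallowest at 17053436 reads. Without this library the same 8 genes were lower, with log2 fold changes of -2.97 for Plk1, -1.11 for Plk4 and -2.03 for Nek2. The part of depth in this was not tested. The third Rnf40-/- library was the lowest of its genotype for 5 of the 10 genes.

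CDK1, the kinase that the B-type cyclins activate, and the genes listed with it largely fell with the members. In a list of 14 genes in the table, 12 were lower, and Ensa was higher by 0.16 on the log2 scale (adjusted p = 0.0461, limma), a call that was lost without either the first or the third Rnf40+/+ library and without any 1 of the Rnf40-/- libraries. Arpp19, which like ENSA encodes an inhibitor of the phosphatase PP2A once phosphorylated by the kinase MASTL, did not pass (log2 fold change 0.01, adjusted p = 0.883, limma). The median was -1.12. This list, called the CDK1 regulators here, also held Cdk2, Tpx2 and Gtse1. Mastl was counted in it and again among the other mitotic kinases. Cdk1 had 856, 786 and 771 normalized counts in Rnf40+/+ and 225, 196 and 164 in Rnf40-/- MEFs, a log2 fold change of -2.05 (adjusted p = 1.15e-07, limma). Cdc25c, a phosphatase that removes the inhibitory phosphates from CDK1, had 54.9, 72.4 and 64.7 against 20.4, 7.31 and 11.3 (log2 fold change -2.31, adjusted p = 0.00021, limma). Wee1 and Pkmyt1, the kinases that place those phosphates, fell as well, with log2 fold changes of -0.79 and -1.78.

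The 5 partners of Aurora B and guardians of the centromere were all lower, with a median of -1.64. Sgol1 (shugoshin 1), which protects centromeric cohesin, had 118, 104 and 132 normalized counts in Rnf40+/+ and 16.3, 12.5 and 8.50 in Rnf40-/- MEFs (log2 fold change -3.18, adjusted p = 2.57e-06, limma). Birc5 (survivin), a subunit of the passenger complex, fell by 2.16 (adjusted p = 1.53e-06, limma), close to the -2.14 of Aurkb. Tpx2, the spindle factor that activates Aurora A, fell by 1.91.

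Of 9 tested genes for other mitotic kinases all 9 were lower, with a median of -2.75. Pbk, a mitotic kinase of the MAPKK family, fell by 3.72 (adjusted p = 2.5e-07, limma), from 185, 140 and 147 normalized counts to 9.18, 12.5 and 11.3. Bub1, a spindle checkpoint kinase, fell by 3.11 (adjusted p = 1.7e-06, limma). Of 7 other NIMA-related kinases tested, 2 were lower and 2 higher, beside 24.1% and 23.3% of all genes tested. Their median was -0.09, and their difference from Nek2 was not tested. Nek3 (-0.78) and Nek6 (-0.43) were lower, Nek7 (0.28) and Nek8 (0.39) were higher, and Nek1, Nek4 and Nek9 did not pass. Without the first Rnf40-/- library 1 of these kinases was higher, and without the first Rnf40+/+ or the second Rnf40-/- library 1 was lower. Among 16 other cyclins tested, 6 were lower and 3 higher with a median of -0.13, to be read beside the same shares of all genes. Only 4 of them were lower with DESeq2, without the second Rnf40+/+ library and without any 1 of the Rnf40-/- libraries. Ccnf, the cyclin F that peaks in G2, fell by 1.36 (adjusted p = 3e-05, limma), Ccnd1 by 0.71 and Ccne1 by 0.69, whereas Ccnt1, a subunit of the elongation kinase P-TEFb, rose by 0.48 and Ccni by 0.39.

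The anaphase-promoting complex, which marks cyclins A and B for destruction, was examined as core subunits and as helpers, and the difference between these lists was not tested. Of 12 core subunits 4 were lower, against 24.1% of all genes tested, and 8 did not pass, and the median was -0.09. The largest change was that of Anapc11, the RING subunit, at -0.97 (adjusted p = 0.000487, limma), with 771, 786 and 1298 normalized counts in Rnf40+/+ and 507, 430.0 and 481 in Rnf40-/- MEFs. The last Rnf40+/+ library stood far above the other two, and without it 1 core subunit was called higher. Cdc23, another core subunit, fell by 0.56. Of the 5 coactivators, E2 enzymes and inhibitor 4 were lower, with a median of -2.07. Ube2c, the initiating E2, went from 529, 402 and 482 to 48.9, 57.4 and 52.9 normalized counts (log2 fold change -3.12, adjusted p = 2.72e-08, limma), and the mitotic coactivator Cdc20 fell by 2.68. Fzr1, the coactivator of G1 also called CDH1, had a log2 fold change of -0.16 and did not pass (adjusted p = 0.172, limma).

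Among 12 centriole and centrosome linker genes 6 were lower and 2 higher, against 24.1% and 23.3% of all genes tested, with a median of -0.32. Stil, a substrate of PLK4, fell by 1.73 (adjusted p = 4.8e-05, limma). Cep152, which recruits PLK4 to the centriole, fell by 0.93, and Cep250, the linker protein on which NEK2 acts, fell by 0.31. Cep63 and Pcnt rose by 0.32 and 0.28. Neither centriole gene was called higher without the last Rnf40+/+ or the second Rnf40-/- library, and 1 was without the first Rnf40+/+, the first Rnf40-/- or the last Rnf40-/- library.

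**Figure D5:**
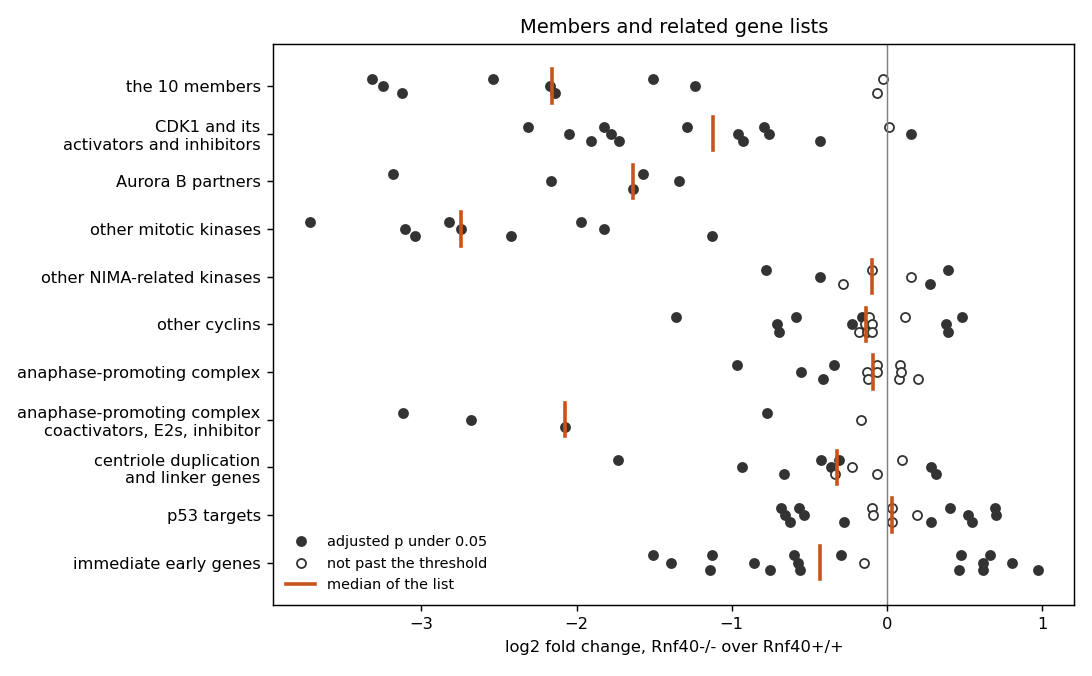
Log2 fold changes of the 10 genes and of 10 related lists, with filled points for an adjusted p under 0.05, open points for the others and a line at the median of each list. The medians run from -2.75 for other mitotic kinases to 0.03 for p53 targets.

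PLK2 and PLK3 are known as products of p53 target and immediate early genes, and both groups were examined beside them. Over all genes tested 24.1% were lower and 23.3% higher. Of 17 p53 targets 6 were lower and 6 higher, with a median of 0.03. Btg2 rose by 0.70 and Trp53inp1 by 0.70, while Zmat3 fell by 0.68 and Cdkn1a, the CDK inhibitor p21, fell by 0.66 (adjusted p = 8.2e-06, limma). Of 18 immediate early genes 10 were lower and 7 higher, with a median of -0.43. Egr3 and Egr2 fell, with log2 fold changes of -1.51 and -1.39, whereas Atf3 rose by 0.97 and Dusp1 by 0.80. Plk2 and Plk3, with log2 fold changes of -0.07 and -0.02, lay between these values.

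The genes whose pattern over the 6 libraries was nearest to each member were found by the Euclidean distance of log2 values, each centred on its Rnf40+/+ mean. For Ccnb1 and for Ccnb2 the nearest was Kif2c, a mitotic kinesin that takes microtubules apart, at distances of 0.389 and 0.291. For Plk1 it was the gene listed as Cenp-a, at 0.304, followed by Troap at 0.415. Birc5 was the second nearest to Aurkb (0.284) after Prim1, the small primase subunit (0.188), and Wdhd1 the second nearest to Plk4 (0.313) after Cthrc1 (0.256). Genes not known for a mitotic role were near other members, namely Nptx2 for Aurka (0.279), Col6a2 for Nek2 (second, 0.34) and Mirg for Ccna2 (0.197). The kinetochore gene Zwilch was almost as near to Ccna2 as Mirg (0.198). The nearest genes to Plk2 and Plk3 were Cast (0.0291) and Suds3 (0.0577).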

How the data were processed

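RNA-seq of 3 Rnf40+/+ and 3 Rnf40-/- MEF libraries was analysed from the deposited table. The authors mapped reads to the mouse transcriptome (mm9) and normalized with DESeq (version 1.14.0, Bowtie2 version 2.1.0, per the labels), so the deposited signal is reads divided by a size factor per library. In each library 100% of positive values were whole multiples (tolerance 0.01) of the smallest, which gave back the reads. The counting tool is not given in the sources used here.

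limma (version 3.58.1, lmFit, eBayes with trend) compared genotypes on log2(normalized count + 1), with no other term, for genes kept by filterByExpr of edgeR (version 4.0.16). The added 1 understates changes of low genes. With 3 libraries against 3 an exact permutation test cannot give p below 0.1, so none is given. edgeR's quasi-likelihood test on the recovered reads called 7797 genes, limma 7764. Pairs of members were tested on within-library log2 ratios. Alternatives were DESeq2 (version 1.42.0), edgeR, TMM and upper-quartile scaling, other filters and pseudocounts, a replicate block, each library left out, and the criteria of the study. Ratios as single rows without a trend were added after seeing the data. On simulated data of 16378 genes limma recovered all 200 changed genes with 12 false calls. limma on ratios recovered all 200 with 5 false calls and a median error of -0.188 on the log2 scale. The simulated reference was a well expressed gene without change, whereas Plk1, Aurka and Ccnb1 fell. Ratio fits to a reference that falls were thus not tested by simulation. The changed genes were well expressed, with large changes, and far fewer than the 7764 called in the data. Recovery of small changes was therefore not tested. Within genotypes, pairs of libraries differed by 5.31 to 28.3 chi-square units per gene, so none was the same library sequenced again. Whether separate libraries came from the same cells cannot be told in this way. The third Rnf40+/+ library differed from the first and second by 28.3 and 25.6, and those from each other by 7.85. R (version 4.3.3), Python (version 3.11.15) and BLAST (version 2.17.0) were used. Gene positions are from GENCODE M1 (mm9), promoters from GRCm38.p6.

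Named are the 10 members, Rnf40, the 2 genes with the largest rise and fall among those called in each list, and the 2 genes nearest to each member, of which not all are given. Other listed genes named (Arpp19, Wee1, Pkmyt1, Tpx2, Fzr1, Ccne1, Cep250, the NIMA-related kinases) were chosen after their values were seen. Members and lists were chosen with earlier results of these data known. Bora, Ajuba, Adgre1 and Map2 matched no symbol in the table.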

Additional observations from a re-analysis of the deposited data

How the results depend on the processing

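In all 15 other settings tried for the members the same 8 genes stayed lower and past the threshold, and Plk2 and Plk3 stayed short of it. When single libraries were dropped, the log2 fold change of Plk3 ran from -0.088 to 0.035, changing sign without the third Rnf40+/+ or the first Rnf40-/- library. The difference of Plk3 against Plk2 ran from -0.015 to 0.16, and that of Ccnb2 against Ccnb1 from -0.16 to 0.011. That of Aurkb against Aurka ran from 0.25 to 0.55. It was past the threshold without the third Rnf40-/- library in the fit on ratios to Aurka, and the single-row fit was not run there. Over all genes tested, replicates with the same number did not deviate together (correlations 0.0118, 0.0174 and 0.0212). Among the members, Plk1, Aurkb, Ccnb1 and Ccnb2 stood highest in replicate 1 of both genotypes, Plk2 in replicate 2 and Plk3 in replicate 3. The other members were highest in different replicates of the genotypes. The fit with a replicate block called 8217 genes in place of 7764 and changed no call among the members or pairs, but the single rise among the CDK1 regulators, Ensa, was lost (0), as it was without a gene filter (0), and leaving libraries out gave 0 to 1. Left out in turn, libraries gave 1 to 3 higher and 1 to 2 lower NIMA-related kinases, 0 to 1 higher subunits of the anaphase-promoting complex and 0 to 2 higher centriole genes, for which DESeq2 gave 1. By the criteria of the study, which ask for a log2 change beyond 1, the counts were 7 lower and 0 higher for CDK1 regulators, 0 and 0 for NIMA-related kinases, 1 lower and 0 higher for other cyclins, 0 lower for the anaphase-promoting complex, 1 lower and 0 higher for centriole genes, 0 and 0 for p53 targets, and 4 lower and 0 higher for immediate early genes. Among the members the main limit of depth is Nek2, with fewer than 20 reads in each Rnf40-/- library. In the lists, Pbk had 9.18 to 12.5 normalized counts, Sgol1 8.50 to 16.3 and Cdc25c 7.31 to 20.4 in Rnf40-/- libraries. Asking for at least 10 reads in every library leaves out genes with fewer. Other mitotic kinases, Aurora B partners and CDK1 regulators then had 6, 4 and 11 genes lower, in place of 9, 5 and 12.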
